A study of Rattus norvegicus with 6 samples.

Results

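Plasmacytoid dendritic cells (pDCs) were sought among 25547 single cells of 6 rat lungs by their surface genes. A cell was taken as a pDC where Siglech, a sialic acid-binding lectin of rodent pDCs, and Ccr9, a chemokine receptor, had at least 2 unique molecular identifiers (UMIs, each standing for a captured mRNA molecule) together, and where Cd3e, Cd3g, Cd79b, Ms4a1, Mrc1 and Cdh5 had 0. These 6 excluded genes mark T cells, B cells, macrophages and endothelium. The rule chose 82 cells, 0.321% of all, and left 25465 other cells. The lungs came from young adult Sprague Dawley rats with no transgene or deletion, whose sex was not given. In the BLM-treated group 3 rats had received bleomycin (BLM), which damages the lung and is used to model fibrosis, once at 5 mg/kg through the trachea. In the control group 3 rats had received saline by the same route. Small pieces of lung, unsorted, were digested on day 28 in both groups, and whole transcriptome libraries were made with the BD Rhapsody system, which pairs each cell with a barcoded bead in a microwell.

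pDCs are rare bone marrow-derived cells that patrol blood and tissues and release large amounts of type I interferon when nucleic acids reach the receptors TLR7 and TLR9 in their endosomes. Their development depends on the basic helix-loop-helix factor TCF4, with help from SPIB, RUNX2, BCL11A and IRF8, and is opposed by ID2, which favours conventional dendritic cells. They carry a large endoplasmic reticulum, express several genes otherwise known from lymphocytes, and present antigen less well than conventional dendritic cells.

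The 6 libraries held between 2568 and 7481 cells and between 3860028 and 16598959 UMIs. All deposited cells were kept and no doublet caller was run. Of the barcodes, 314 occurred in more than 1 library, among them those of 3 pDCs, and no barcode was shared by a pair of pDCs. The pDCs held 168145 UMIs, with a median of 1981 UMIs and 1214.5 genes per cell, against 1414 UMIs and 838 genes in the other cells. A single pDC of control rat 3 stood apart with 8732 UMIs, the next highest having 3820. It held 638 UMIs of Sftpc, 175 of Sftpa1 and 278 of Lyz2, which are genes of alveolar type II (AT2) cells and macrophages, beside 2 of Siglech, 2 of Ccr9, 12 of Gapt and 36 of LOC24906. It held 638 of the 657 Sftpc UMIs of all pDCs. The share, the counts of genes called and the fold changes of named genes were also computed without it, but not the counts, medians and sums of lists or the shares of cells with a UMI.

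Both markers were detected in 49 pDCs, Siglech alone in 25 and Ccr9 alone in 8. The sum of the markers was 2 in 22 cells, 3 in 26 and at least 4 in 34, with a highest value of 9. The pDCs held 193 of the 422 Siglech UMIs and 99 of the 259 Ccr9 UMIs of the whole data set. In the 3 BLM-treated rats, Siglech had 1440.0, 877 and 721 UMIs per 1000000 UMIs (CPM) in the summed pDCs, against 1357, 1008 and 1286 CPM in the control rats. Ccr9 had 450.0, 1169 and 567 CPM in pDCs of BLM-treated rats, against 754, 597 and 429 CPM in those of control rats. These levels chose the cells and are given as a description.

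pDCs took a smaller share of the cells in the BLM-treated lungs. They were 6 of 3657 cells (0.164%, exact 95% binomial interval 0.0602 to 0.357), 4 of 7481 (0.0535%, 0.0146 to 0.137) and 9 of 3871 (0.232%, 0.106 to 0.441) in BLM-treated rats 1 to 3. In control rats 1 to 3 they were 17 of 3372 cells (0.504%, 0.294 to 0.806), 23 of 2568 (0.896%, 0.569 to 1.34) and 23 of 4598 (0.500%, 0.317 to 0.750). The groups did not overlap, and the intervals cover counting error only. The mean share was 0.150 ± 0.0903% in BLM-treated and 0.633 ± 0.227% in control rats (SD, n = 3 each), so that the control share was 4.22 times as high. On cell counts of 18 cell classes, edgeR's quasi-likelihood test gave a log2 fold change of -2.14 ± 0.70 (SE, adjusted p = 0.00712), and the two-sided exact permutation test gave p = 0.1, the smallest that 3 against 3 rats allow.

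**Figure D1:**
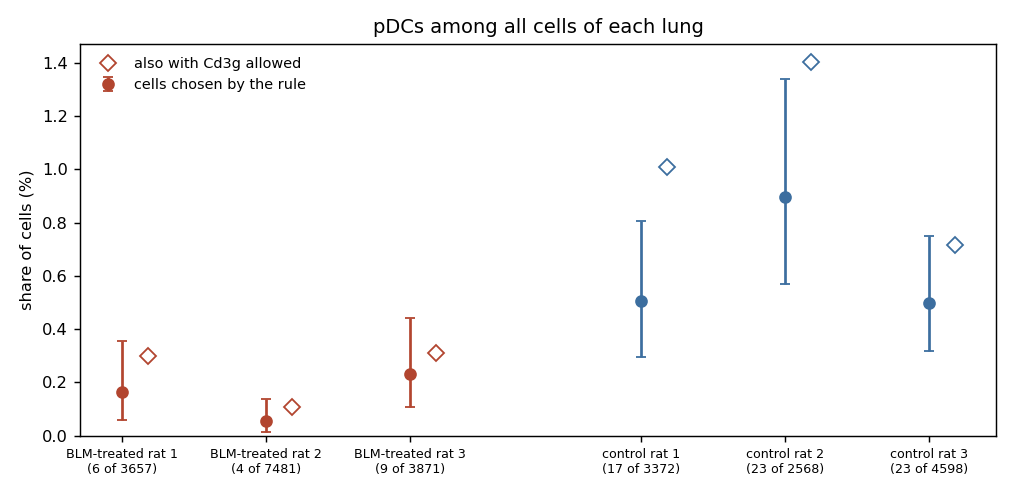
Share of all cells of a lung (%) that were pDCs, by rat, with BLM-treated rats on the left and control rats on the right. Filled points with exact 95% binomial intervals are the cells chosen by the rule and open diamonds the cells chosen when Cd3g is allowed. The highest BLM-treated point is 0.232% and the lowest control point 0.500%.

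A share depends on the other cells too: fewer pDCs and more of other cells cannot be told apart here. Endothelial, stromal, mesothelial and ciliated classes, assigned by markers, were larger in the BLM-treated libraries, and endothelial cells for instance were 356, 641 and 546 cells in BLM-treated rats against 22, 49 and 142 in control rats. Among the cells outside the endothelial, stromal, mesothelial, AT2 and ciliated classes, pDCs were 0.209 ± 0.143% in BLM-treated and 0.743 ± 0.286% in control rats (SD, n = 3 each; log2 fold change -1.96, edgeR adjusted p = 0.0162). The call was lost without BLM-treated rat 2, which had the lowest share (log2 fold change -1.63, edgeR adjusted p = 0.0667), among cells with a UMI of the leukocyte gene Ptprc (-1.92, adjusted p = 0.0821), and under a stricter set of excluded genes that kept 36 cells (-1.64, adjusted p = 0.114). The stricter set also excluded C1qa, S100a9, Epcam, Col1a1, Nkg7 and Jchain. Jchain was itself higher in pDCs, as given below, so this set also dropped cells for a gene that pDCs held.

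Of the 161 cells with at least 2 marker UMIs, 79 were left out by an excluded gene. Cd3g, which encodes the gamma chain of the T cell receptor complex, left out 52 of them alone, whereas each other excluded gene alone left out between 2 and 5. The 52 cells held 69 Cd3g UMIs, with 1 UMI in 38 cells and at most 3. Of 5 other T cell genes looked at, Cd3e was at 0 by the choice of these cells, as it is an excluded gene too. Of the others, 0 of 52 cells held a UMI of Cd3d, Cd247, Cd6 or Lck. This allows up to 5.77% of cells with a UMI of each and does not limit the cells that express it. The 52 cells had a median of 2320 UMIs and 3 marker UMIs. Gapt was detected in 90.4% of them, LOC24906 in 98.1%, Tcf4 in 80.8%, Spib in 82.7% and Runx2 in 84.6%, against 90.2%, 95.1%, 69.5%, 81.7% and 63.4% of the pDCs in the same order.

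With Cd3g allowed, a choice made after seeing the data, the set grew to 134 cells, 31 of BLM-treated and 103 of control rats, and 38.8% of them held a Cd3g UMI. Its share was 0.239 ± 0.115% in BLM-treated and 1.04 ± 0.343% in control rats (SD, n = 3 each; log2 fold change -2.17, edgeR adjusted p = 0.00280). This call held without each rat in turn, with adjusted p values of the same test up to 0.0423.

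The pDC label was checked on genes that the rule did not use. Tcf4 was detected in 69.5% of pDCs, Spib in 81.7%, Runx2 in 63.4%, Irf7, the interferon master regulator, in 64.6%, the interferon-inducible surface gene Bst2 in 80.5% and the lysosomal nuclease Pld4 in 59.8%. In the B class, with a median of 629 UMIs, these genes were detected in 6.2%, 31.8%, 0.2%, 5.8%, 2.5% and 0.6% of cells in the same order. When every cell was thinned to 500 UMIs, Tcf4 was still detected in 35.8% of pDCs against 4.6% of B cells, and Gapt in 59.3% against 0%. Of the receptors, Tlr7 was detected in 50% of pDCs but Tlr9 in 1.2%, which is 1 cell, and Il3ra in 4.9%. Cd4 was detected in 15.9%. Ptprc was detected in 91.5% of pDCs, and Irf8 was not analysed here. The markers thus stood with the label for the transcription factors and Tlr7, while Tlr9 was at the limit of detection.

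**Figure D2:**
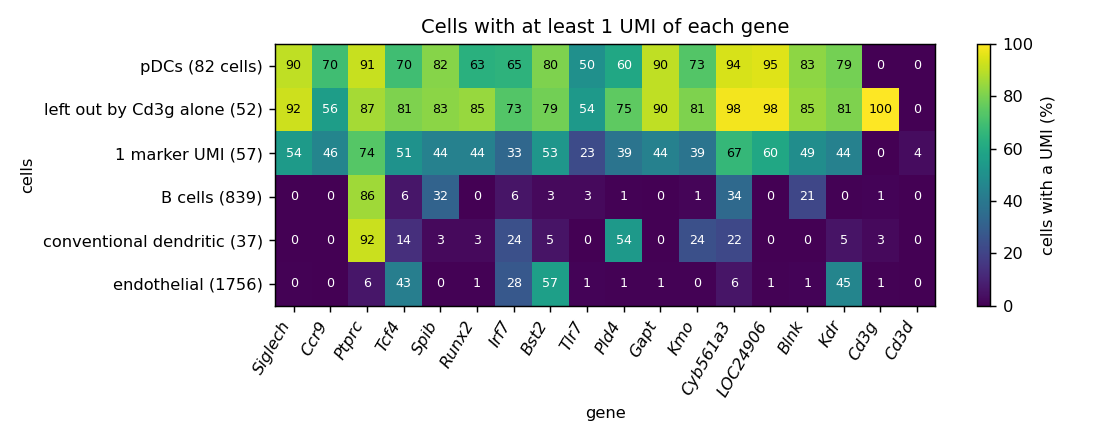
Share of cells (%) with at least 1 UMI of each gene (columns), in pDCs, in cells left out by Cd3g alone, in cells with 1 marker UMI and no excluded gene, and in the B, conventional dendritic and endothelial classes (rows). Colour and printed numbers show the same value. Gapt and LOC24906 are in over 90% of pDCs and in at most 0.2% of B cells. Kdr was among the markers that called the endothelial class.

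Cells just outside the threshold were less clear. The 57 cells with 1 marker UMI and no excluded gene had a median of 1318 UMIs, and held Tcf4 in 50.9%, Spib in 43.9%, Gapt in 43.9% and LOC24906 in 59.6%. The 8 pDCs with Ccr9 alone held Spib in 50%, Gapt, Kmo and Kdr in 62.5% each and Tlr7 in 37.5%, between the values of all pDCs and of the cells outside for these genes. Other genes differed from the cells outside by less than 1 of the 8 cells (12.5%): Tcf4 (50% against 50.9%), Bst2 (50% against 52.6%), Pld4 (37.5% against 38.6%), Cyb561a3 (62.5% against 66.7%) and Il3ra (0% against 3.5%). The T cell genes Lck and Cd247 were each in 1 of the 8 cells (12.5%), the only pDC that held the gene (1.2% of all pDCs). They were in 7.0% and 5.3% of the cells outside, and no order can be read from 1 cell. Siglech lies within the annotated span of Nipa1 in the rat genome build GRCr8, and Nipa1 had 0 UMIs in pDCs.

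Gene levels were compared between pDCs and all other cells on UMIs summed per rat, with the rat as a block, in the 5 rats with at least 5 pDCs. BLM-treated rat 2, with 4 pDCs, is shown in the levels but was not in the fits. Of 10918 genes tested outside the rule, 486 were higher in pDCs (4.45%) and 1973 lower (18.1%) at an adjusted p under 0.05 (edgeR quasi-likelihood test). This split depends on scaling, since the median log2 fold change of all genes was -0.73 with TMM scaling and -0.05 on total UMIs alone. With no scaling factors 1077 genes were higher and 955 lower. Fold changes are therefore to be read against the median of -0.73, and the largest ones kept their direction under each scaling.

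The gene farthest above the other cells was Kmo, kynurenine monooxygenase of tryptophan breakdown. Its level in pDCs was 630.0, 877 and 773 CPM in BLM-treated rats and 905, 638 and 633 CPM in control rats, while the other cells of the 6 rats held 1.57 to 21.3 CPM, so pDCs and other cells did not overlap. The log2 fold change was 6.0 ± 0.32 (SE, edgeR adjusted p = 3.91e-74). Gapt, a transmembrane protein that binds the adaptor GRB2, had 1890.0, 1169 and 1391 CPM in pDCs of BLM-treated rats and 2322, 1748 and 1918 CPM in those of control rats, against 6.75 to 54.6 CPM in other cells (log2 fold change 5.66 ± 0.27, edgeR adjusted p = 7.74e-94). It was the more abundant of the pair in every rat.

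LOC24906, which RefSeq names Lypd8l1, and Cyb561a3, a lysosomal ferrireductase, were the most abundant of the leading genes. LOC24906 had 3240.0, 3654 and 2421 CPM in pDCs of BLM-treated rats and 2683, 4484 and 3408 CPM in those of control rats, against 38.2 to 132 CPM in other cells (log2 fold change 4.91 ± 0.26). Cyb561a3 had 2970.0, 4239 and 3554 CPM in pDCs of BLM-treated rats and 3859, 3990.5 and 3184 CPM in those of control rats, against 39.3 to 127 CPM in other cells (4.79 ± 0.25). Both were detected in over 90% of pDCs in the plot of cells with a UMI.

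Another 10 of the 15 leading genes fall into a few kinds. Surface genes were Timd2 (log2 fold change 5.28 ± 0.43) and Havcr1 (4.77 ± 0.44), both of the TIM family, Flt3 (4.66 ± 0.39), the receptor whose ligand drives dendritic cell development, Cd7 (4.21 ± 0.28), an immunoglobulin superfamily gene of lymphocytes, and Lrp8 (4.26 ± 0.34), a lipoprotein receptor. Spib (4.35 ± 0.27) and Blnk (4.36 ± 0.27), an adaptor of B cell receptor signalling, are shared with the B lineage. Pygm (4.46 ± 0.39) encodes glycogen phosphorylase, Pdia5 (4.16 ± 0.39) a disulfide isomerase of the endoplasmic reticulum, and Cdca7l (5.01 ± 0.44) a nuclear protein. The lowest pDC level of any of these genes in a rat was 51.5 CPM, of Cdca7l in BLM-treated rat 3, and the highest level in other cells was 48.8 CPM, of Spib in control rat 2.

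**Figure D3:**
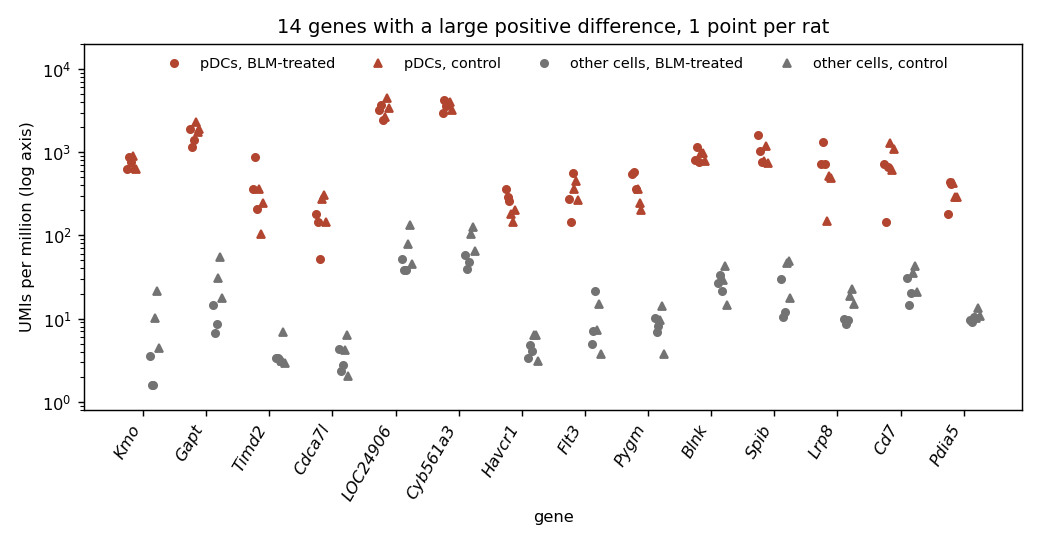
Level in CPM (log axis) of 14 of the 15 genes with the largest positive difference between pDCs and all other cells, 1 point per rat, with pDCs to the left and other cells to the right of each gene, and circles for BLM-treated and triangles for control rats. For each gene every pDC point lies above every point of the other cells.

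At the other end stood myeloid and stromal genes that were absent from pDCs. Of the 10 genes with the largest negative difference, 9 had 0 UMIs in the 82 cells, and Krt79 had 1. Clec7a, the beta-glucan receptor of phagocytes, was detected in 40.1% of other cells, and pDCs were at least 106-fold lower, taking 3 UMIs over all pDCs as the floor. Il1b, the inflammatory cytokine, was at least 71.9-fold lower, fibronectin Fn1 at least 43.3-fold, Sparcl1 at least 30.2-fold, the cytokine Tnfsf13 at least 27.4-fold, the glypican Gpc3 at least 21.7-fold, the lipase inhibitor G0s2 at least 18.5-fold, the inhibitory lectin Siglec10 at least 16.9-fold and the peroxisomal transporter Abcd2 at least 15.8-fold.

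The listed genes of pDC identity, regulators and other markers, were high as a group. Of 41 listed genes 33 were measured and 28 tested. In pDCs 18 were higher and 2 lower (4.45% and 18.1% over all genes), with a median log2 fold change of 1.90 against -0.73 over all genes. With no scaling factors 22 were higher and 2 lower. Tcf4 had 1080.0, 439 and 567 CPM in pDCs of BLM-treated rats and 874, 946 and 592 CPM in those of control rats, against 38.7 to 87.5 CPM in other cells (log2 fold change 3.10 ± 0.27). Runx2 (3.21 ± 0.27), Bcl11a (4.01 ± 0.43), Irf7 (2.65 ± 0.26) and Ptcra (5.48 ± 0.59), the pre-T cell receptor alpha gene used as a pDC marker in mouse and man, were also higher, although Ptcra was detected in only 17.1% of pDCs. Id2, the antagonist of TCF4, was lower (-2.58 ± 0.40) at 0 to 144 CPM in pDCs against 196 to 430.4 CPM in other cells. Atp1b1 was the second lower gene (-1.83 ± 0.37), and 13 of its 19 UMIs in pDCs lay in the cell of most UMIs. Bst2 did not pass the test with TMM scaling (0.47 ± 0.25, edgeR adjusted p = 0.157) and passed with RLE scaling (0.61, adjusted p = 0.0355) and on total UMIs alone (1.18). Gzmb, Cox6a2, Dntt and Lair1 of this list had 0 UMIs in pDCs.

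Genes of nucleic acid sensing went both ways. Of 20 tested genes 6 were higher and 3 lower in pDCs, with a median log2 fold change of -0.51 against -0.73 over all genes, of which 4.45% were higher and 18.1% lower. Tlr7, the receptor for single-stranded RNA, had 360.0, 292 and 361 CPM in pDCs of BLM-treated rats and 302, 288 and 347 CPM in those of control rats, against 61.1 to 90.8 CPM in other cells (log2 fold change 1.30 ± 0.31). The Tlr7 call was lost with the stricter set of excluded genes (1.01, edgeR adjusted p = 0.150). Unc93b1, which carries the endosomal receptors from the endoplasmic reticulum, was higher (2.39 ± 0.26), as were Pld4 (3.94 ± 0.29), Irf7, Irf5 (1.35 ± 0.46) and the kinase Chuk (1.49 ± 0.29). Pld3, the sister nuclease of Pld4, was lower (-3.82 ± 0.43), as were Lgmn, a lysosomal protease, and Ifih1, a cytosolic RNA sensor. Tlr3, Tlr8 and the cytosolic DNA sensor Cgas had 0 UMIs in pDCs, which allows up to 17.8 CPM. Genes of the interferons alpha and beta were not analysed here.

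Genes that respond to interferon showed no common direction. Of 32 tested, 4 were higher in pDCs and 10 lower (4.45% and 18.1% over all genes), with a median log2 fold change of -1.43 (-0.20 with genes at 0 UMIs set to their bound), and with no scaling factors 8 were higher and 6 lower. Ifnar2, a subunit of the type I interferon receptor, was among the higher ones (1.96 ± 0.33), and Isg15 (-1.92 ± 0.55), Ifit2 (-4.09 ± 0.93) and Cxcl10 among the lower ones. Summed over the 33 measured genes, pDCs held 2340.0, 2777 and 4636 CPM in BLM-treated rats and 2231, 2653 and 2714 CPM in control rats, against 1559.8 to 3401 CPM in other cells, so the sums overlapped between pDCs and other cells.

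The MHC class II chains tested lay above the other lung cells. RT1.DMa, RT1.DMb and RT1.DOb, which help or hinder the loading of class II molecules, had 0 UMIs in pDCs. None of these was called lower than in all other cells. Cd74, the invariant chain, had 9990.1, 10525 and 10715 CPM in pDCs of BLM-treated rats and 8563, 11519 and 9429 CPM in those of control rats, against 1793 to 3140.0 CPM in other cells (log2 fold change 1.39 ± 0.22). RT1.Da, a class II alpha chain, was higher by 1.38 ± 0.22. Of 14 tested genes of antigen presentation 6 were higher and 2 lower (4.45% and 18.1% over all genes), the lower ones being Cd274, an inhibitory ligand, and B2m (-1.33 ± 0.22), the light chain of class I, with a median of -0.25 over the list. The costimulatory genes Cd80 and Cd40 had 0 UMIs and Cd86 was detected in 2.4% of pDCs.

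Genes of protein secretion depended on what pDCs were set against. Against all other cells 3 of 25 were higher and 2 lower with TMM scaling (4.45% and 18.1% over all genes), with a median log2 fold change of 0.14, and 12 higher and 0 lower with no scaling factors. Spcs2, a subunit of the signal peptidase, had 990.0, 1169 and 1339 CPM in pDCs of BLM-treated rats and 1387, 1460.4 and 1143 CPM in those of control rats, against 346 to 402 CPM in other cells (1.06 ± 0.24).

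The chemokine receptor Cxcr3, known from inflamed tissue, was higher in pDCs, and genes of lymphocyte traffic were lower. Among 17 tested genes of homing and adhesion 2 were higher, among them Cxcr3 (log2 fold change 4.52 ± 0.43), and 6 lower, among them Ccr1 (-5.81 ± 0.73), S1pr1 (-5.33 ± 0.76), the receptor for sphingosine phosphate that guides lymphocytes out of tissue, and Cxcr4 (-1.60 ± 0.27), which retains cells in the bone marrow. The list's median was 0.13, and over all genes 4.45% were higher and 18.1% lower. With no scaling factors 6 of the list were higher and 4 lower. Cxcr3 had 270.0, 0 and 51.5 CPM in pDCs of BLM-treated rats and 241, 226 and 224 CPM in those of control rats, against 1.93 to 10.2 CPM in other cells.

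Several genes known from lymphocytes were high, while Pax5, which defines the B lineage, was not seen. Of 14 tested genes of that list 8 were higher and 2 lower (4.45% and 18.1% over all genes), with a median log2 fold change of 1.06. Jchain, the joining chain of polymeric antibodies, was detected in 52.4% of pDCs (3.11 ± 0.31). The next genes, Ighm and Fcrla, belong to the list of B and plasma cell genes, not to this list. Ighm, the heavy chain of IgM, was detected in 93.9% of pDCs against 12.5% of other cells, at 1890.0, 2777 and 1597 CPM in pDCs of BLM-treated rats and 1297, 1419 and 1674 CPM in those of control rats, against 334 to 887 CPM in other cells. Its log2 fold change of 0.79 ± 0.24 passed the edgeR test (adjusted p = 0.00615) and did not pass without control rat 3 (adjusted p = 0.101) or with DESeq2 (adjusted p = 0.0957). Fcrla, an Fc receptor-like gene of B cells, was higher by 1.28 ± 0.28, and Pax5, Ebf1, Rag1 and Dntt had 0 UMIs in pDCs.

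Genes of inflammation, glycolysis and division did not stand out upward, where 4.45% of all genes tested were higher and 18.1% lower. Among 11 tested cytokine genes 1 was higher and 6 lower (median log2 fold change -1.66), and the higher one, Cxcl9, had all of its 26 UMIs in 1 cell of BLM-treated rat 3 and changed sign without that rat. Of 12 glycolysis genes 0 were higher and 5 lower (median -0.79), and with no scaling factors 2 were higher and 3 lower. Of 15 cell cycle genes 0 were higher and 8 lower (median -3.74, or -0.62 with genes at 0 UMIs at their bound). The proliferation gene Mki67 was detected in 2.4% of pDCs and Top2a had 0 UMIs, at least 3.65-fold lower than in other cells. Immediate early genes were not analysed here.

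Markers of macrophages and of the alveolar epithelium were low in the pDCs of most rats, and some markers of B and plasma cells were not. Of 17 macrophage genes 8 had 0 UMIs, including Marco, C1qa, C1qb, C1qc and Apoe, and their sum was 360.0, 585 and 309 CPM in pDCs of BLM-treated rats and 693, 987 and 6367 CPM in those of control rats. Of 14 genes of the alveolar epithelium 3 had 0 UMIs, and their sum was 270.0, 0 and 361 CPM in BLM-treated and 452, 1481 and 20021 CPM in control rats. Control rat 3, which holds the cell of most UMIs, was the highest in both. Of 10 T and NK cell genes Cd3d and Cd6 had 0 UMIs, and the sum was 0, 0 and 103 CPM in BLM-treated and 874, 432 and 0 CPM in control rats, where Gzma gave 18 UMIs in 2 cells. Neutrophil genes were at 0 in 4 of 7. Genes of B and plasma cells were at 0 in 4 of 9, but their sum was 2970.0, 4239 and 2576 CPM in pDCs of BLM-treated rats and 3045, 2448 and 3388 CPM in those of control rats, above the 549 to 1409.9 CPM of other cells in every rat. Genes of monocytes and conventional dendritic cells were at 0 in 5 of 11 and summed to 630.0, 439 and 927 CPM in pDCs of BLM-treated rats and 844, 638 and 694 CPM in those of control rats, against 250.1 to 767 CPM in other cells. In the fits against all other cells 13 of 14 epithelial, 16 of 16 macrophage, 7 of 7 neutrophil, 5 of 9 T and NK cell, 2 of 8 monocyte and conventional dendritic, 6 of 9 stromal and endothelial and 2 of 2 erythroid genes were lower, and 3 of 8 B and plasma cell genes (Jchain, Fcrla and Ighm), Flt3 and Kdr were higher. Over all genes 18.1% were lower and 4.45% higher. With no scaling factors the lower ones were 12 of 14 epithelial, 16 of 16 macrophage, 5 of 7 neutrophil, 1 of 9 T and NK cell, 1 of 8 monocyte and conventional dendritic, 4 of 9 stromal and endothelial and 1 of 2 erythroid genes. The rule had left out cells with a UMI of Mrc1, Cd3e, Cd3g or Cdh5, so low macrophage, T cell and endothelial genes were in part set in advance. Mrc1 alone had left out 5 cells, Cd3e and Cdh5 alone 2 each and Cd3g alone 52. The part of other cells' RNA in the results above was not tested beyond the values without the cell of most UMIs.

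Of the listed endothelial genes, Kdr, the receptor for vascular endothelial growth factor, was higher in pDCs. Kdr had 1350.0, 1023 and 1494 CPM in pDCs of BLM-treated rats and 1447, 1481 and 1082 CPM in those of control rats, against 31.3 to 79 CPM in other cells (log2 fold change 4.14 ± 0.26). It was detected in 79.3% of pDCs, 45.4% of the endothelial class and 0.5% of B cells, and in 51.9% of pDCs against 0.2% of B cells after thinning to 500 UMIs. Kdr was itself among the markers that called the endothelial class. Flt1, Cldn5 and Vwf had 1 UMI each in all pDCs and Egfl7 had 0. Kdr was also detected in 80.8% of the cells left out by Cd3g alone.

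B cells were taken as a lymphocyte reference that shares transcription factors with pDCs. Of 1776 genes tested, 399 were higher in pDCs (22.5%) and 396 lower (22.3%) by edgeR's quasi-likelihood test. Tcf4 (log2 fold change 3.01 ± 0.30), Irf7 (2.75 ± 0.28), Bst2 (3.65 ± 0.30), Tlr7 (3.46 ± 0.52), Pld4 (5.41 ± 0.47) and Kdr (7.11 ± 0.39) were higher in pDCs. Spib did not pass the test (0.15 ± 0.21, edgeR adjusted p = 0.590), at 735 to 1620.0 CPM in pDCs against 266 to 1023 CPM in B cells. Of 16 tested identity genes 12 were higher and 0 lower (median 2.85 against -0.02 over all genes), and of 5 tested sensing genes 5 were higher (median 2.75). Lymphocyte genes were split, with 3 of 8 higher (Cd7, Jchain and Blnk) and 3 lower (Ebf1, Bank1 and Cd37, median -0.18). Outside that list, Ighm was lower by a log2 fold change of -2.60 ± 0.15 and Ptprc by -1.48 ± 0.17.

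Protein secretion and antigen presentation parted in this comparison. Of 20 tested secretory genes 17 were higher in pDCs and 0 lower, with a median log2 fold change of 1.46. Pdia4, a disulfide isomerase, was higher by 3.72 ± 0.55, Sec61a1, a subunit of the translocation channel, by 2.40 ± 0.60 and Spcs2 by 2.11 ± 0.23. The secretory genes summed to 9648 to 12272 CPM in pDCs against 4591 to 5947 CPM in B cells. Of 10 genes of antigen presentation 1 was higher, the lysosomal protease Ctss (1.33 ± 0.22), and 8 lower (median -0.80), among them Cd74 (-0.89 ± 0.10), with 15808 to 18259 CPM in B cells. Sftpc was higher in pDCs by 2.87 in this fit and lay at -0.53 (edgeR adjusted p = 0.429) without the pDC of most UMIs.

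The class of conventional dendritic cells, called from Xcr1, Clec9a, Zbtb46, Flt3 and Batf3, held 37 cells, and only BLM-treated rats 1 and 3 and control rat 3 had 5 or more. Over these 3 rats 605 genes were tested, of which 107 were higher in pDCs (17.7%) and 103 lower (17%) by edgeR's quasi-likelihood test. Tcf4 (log2 fold change 3.67 ± 0.68), Spib (5.76 ± 0.79), Runx2 (5.41 ± 0.81), Bst2 (5.42 ± 0.80), Blnk (7.31 ± 1.03) and Kdr (6.09 ± 0.67) were higher, and Id2 (-4.41 ± 0.59) and Cadm1 (-2.06 ± 0.66), an adhesion gene of cross-presenting dendritic cells, lower. Thus 10 of 13 identity genes were higher and 2 lower (median 3.95 against 0.03 over all genes). All but 1 of the 7 tested genes of antigen presentation were lower in pDCs, Cd74 by a log2 fold change of -1.96 ± 0.17 and RT1.Da by -2.57 ± 0.20 (median -2.57). Secretory genes were 0 of 9 higher and 1 lower, the stress gene Herpud1 (median -0.15). The count of genes called was 210 in all and 65 without control rat 3.

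**Figure D4:**
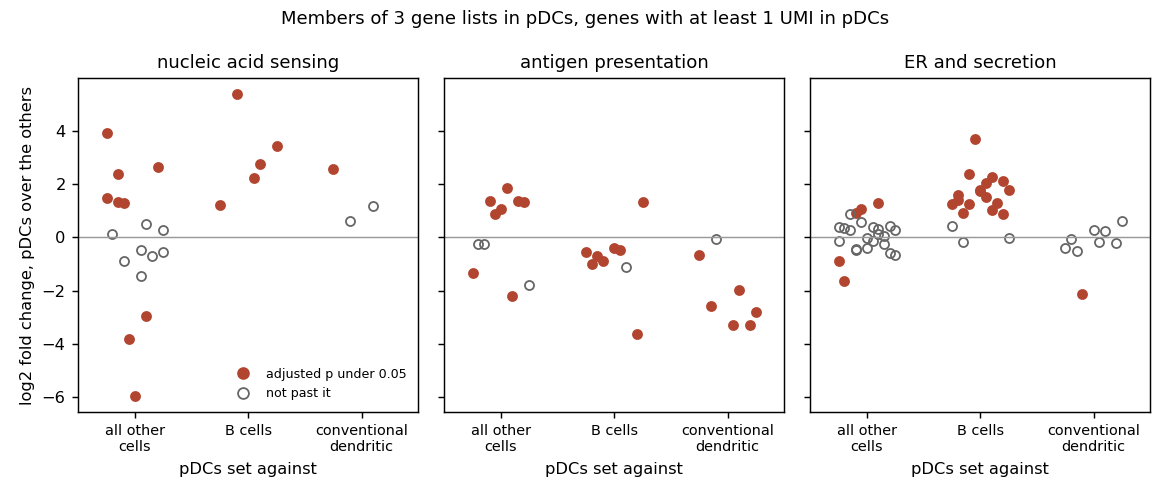
Log2 fold change of pDCs over the others for members of the lists of nucleic acid sensing, antigen presentation and protein secretion with at least 1 UMI in pDCs, set against all other cells, B cells and conventional dendritic cells. Each point is a gene and filled points passed an adjusted p of 0.05. Against B cells 17 of 20 secretory genes are filled and above 0, and against conventional dendritic cells 6 of 7 genes of antigen presentation are filled and below 0.

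Within pDCs, BLM treatment was compared over 5 rats, BLM-treated rats 1 and 3 and control rats 1 to 3. Of 827 genes tested, 0 passed an adjusted p of 0.05 (0%) with edgeR's quasi-likelihood test, and 63 had an unadjusted p under 0.05, while DESeq2 called 0 and gave 29. The BLM-treated sums held 11111 and 19412 UMIs against 33166, 48616 and 48999 in control rats. In simulated data of this comparison the test found 71.4% of the genes given a log2 change of 2 and 26.4% of those given 1. Many genes were changed at once there, which makes the adjusted threshold easier to pass. These percentages therefore do not tell how many such changes the test would find where few genes change. The genes that define the cells had close levels: the log2 fold change was -0.08 ± 0.38 for Tcf4, 0.26 ± 0.36 for Spib, 0.07 ± 0.29 for Kdr, -0.35 ± 0.28 for Gapt and 0.03 ± 0.18 for Cd74. Irf7 had 1620.0, 292 and 927 CPM in BLM-treated and 663, 782 and 571 CPM in control rats, which overlap (0.81 ± 0.34, edgeR adjusted p = 0.560). Over the lists, 0 of 14 identity, 0 of 5 sensing, 0 of 4 interferon response, 0 of 7 antigen presentation and 0 of 14 secretory genes passed, with medians of 0.13, 0.06, 0.45, 0.03 and -0.18 against -0.02 over all genes.

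Genes near the threshold were looked at after their values were seen. Cd83, a surface gene of activated dendritic cells, had 990.0, 1169 and 618 CPM in pDCs of BLM-treated rats 1 to 3, against 181, 41.1 and 102 CPM in those of control rats. The groups did not overlap, and the values rest on 11, 8 and 12 UMIs in BLM-treated and 6, 2 and 5 UMIs in control rats, in 15 cells. The log2 fold change was 2.85 ± 0.62 (SE, edgeR adjusted p = 0.0577). With Cd3g allowed Cd83 was the only gene past the threshold among 1066 tested (0.0938%), at 562, 712 and 718 CPM in BLM-treated and 183, 25 and 85 CPM in control rats (2.71 ± 0.46, edgeR adjusted p = 0.00250). That call was lost without BLM-treated rat 3 (2.56, adjusted p = 0.764), control rat 2 (2.24, adjusted p = 0.0547) or control rat 3 (2.62, adjusted p = 0.0854). By the rule Cd83 passed with RLE scaling (2.89, adjusted p = 0.0210) and did not with DESeq2 (2.93, adjusted p = 0.0791). In B cells Cd83 had 1991, 1915 and 2036 CPM in BLM-treated and 1135, 466 and 1179 CPM in control rats, and the BLM effect in pDCs minus that in B cells was 1.65 ± 0.57 (edgeR adjusted p = 0.446).

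Rgs1, a regulator of G protein signalling, rested most on BLM-treated rat 3, without which the log2 fold change was 0.34 (edgeR adjusted p = 0.813). It had 1440.0, 2631 and 4276 CPM in pDCs of BLM-treated and 1206, 823 and 939 CPM in those of control rats (log2 fold change 1.59 ± 0.35, edgeR adjusted p = 0.0577). The groups did not overlap by the rule and did with Cd3g allowed, at 749, 1820.5 and 3352 CPM in BLM-treated and 1242, 646 and 1125 CPM in control rats (0.99, edgeR adjusted p = 0.339). B2m had 8100.1, 5262 and 12157 CPM in BLM-treated and 5548, 4464 and 5674 CPM in control rats, which overlap (0.94 ± 0.21, edgeR adjusted p = 0.0644). LOC103693189 had 1080.0, 146 and 927 CPM in BLM-treated and 241, 247 and 347 CPM in control rats, which overlap through BLM-treated rat 2, not in the fit (1.76 ± 0.38, edgeR adjusted p = 0.0577). With RLE scaling Rgs1, B2m and LOC103693189 passed (edgeR adjusted p = 0.0210 each), as they did with no scaling factors and without control rat 3, and Rgs1 and B2m also without BLM-treated rat 1.

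**Figure D5:**
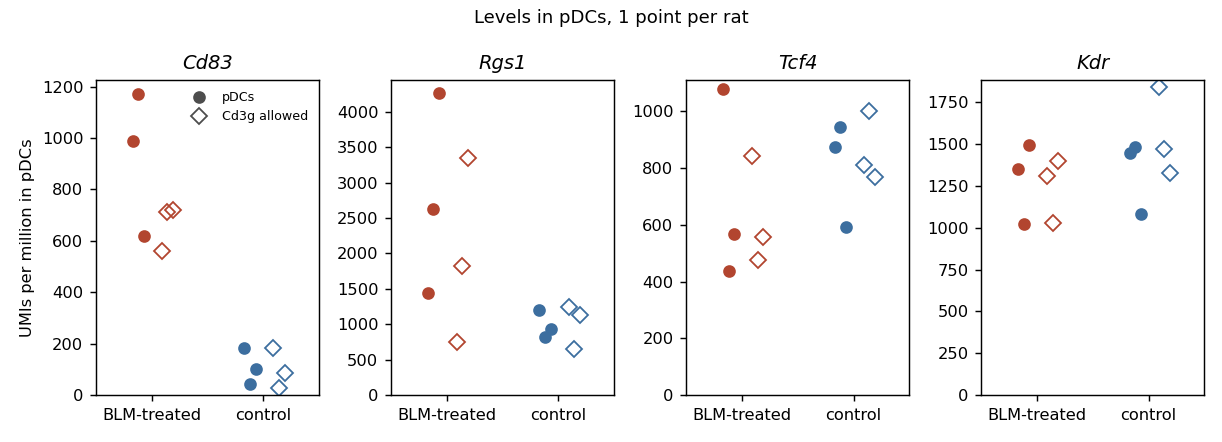
Level in CPM in summed pDCs of BLM-treated (left) and control rats (right), 1 point per rat, with filled circles for the cells chosen by the rule and open diamonds with Cd3g allowed. Each panel has its own axis from 0. For Cd83 the BLM-treated circles lie between 618 and 1169 and the control circles between 41.1 and 181.

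The promoter of Siglech, the lectin gene that chose most of the cells, is shown from RefSeq in the rat build GRCr8, as 300 bases that lie mostly before the start of the gene, at chr1:115729241-115729540 on the plus strand. TCF4 is a basic helix-loop-helix factor, and factors of this family bind E-boxes, so CANNTG, which reads the same on both strands, is in capitals.
Siglech: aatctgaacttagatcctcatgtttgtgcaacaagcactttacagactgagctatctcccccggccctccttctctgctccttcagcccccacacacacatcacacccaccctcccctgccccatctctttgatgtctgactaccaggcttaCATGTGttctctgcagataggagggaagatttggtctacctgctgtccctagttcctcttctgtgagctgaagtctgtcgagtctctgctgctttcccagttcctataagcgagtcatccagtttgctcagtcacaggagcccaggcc
The window held 1 CANNTG. The motif was in 72.1% of all 33469 promoters of this length and in 10 of the 12 promoters matched among the 15 leading genes (83.3%). A match is not a binding site.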

How the data were processed

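mRNA was measured in single cells of 6 rat lungs. The authors deposited whole UMI counts per gene and cell, not normalized, in a table whose header is shifted by 1 field, which was corrected. The build named in the submitters' processing notes is mm9, of the mouse, while genes carry rat names. How reads were aligned and counted and how cells were kept was not given in the sources used here. RefSeq symbols matched 13274 of 16383 genes.

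Cells were called pDCs by the rule above, or else by the marker class with the highest fraction of its markers detected, at least 2, over 16 classes. The members and the gene lists were chosen with earlier results of these data known. Counts were summed per rat over at least 5 cells and tested with edgeR 4.0.16 (filterByExpr, TMM, quasi-likelihood, Benjamini-Hochberg at 0.05) in R 4.3.3, with the rat as a block between classes and treatment alone within pDCs. The 8 genes of the rule and the class markers used in a comparison had no test. Each group held 3 rats, labelled as separate samples. Shares were tested on cell counts with edgeR, and as percentages by an exact two-sided permutation test. Floors were 3 UMIs.

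Named are the 15 genes with the largest positive and the 10 with the largest negative difference from all other cells past the threshold, in the same direction in every rat, at a mean of at least 50 CPM. Any gene past the threshold within pDCs or in the interaction with B cells and members of lists are named as well, and other genes are said to be chosen after their values were seen. Some genes within these rules are not reported here. In simulated counts the test of pDCs against all other cells found 36.6% of the genes given a log2 change of 2, that against B cells 84.2%, that against conventional dendritic cells 76% and that of the interaction 20.4%. The same number of genes was changed in each simulation, so these percentages hold for that setting only. Alternatives were DESeq2 1.42.0, RLE or no scaling, no filter, each rat left out, thinned cells, cells of at least 500 UMIs, other marker or exclusion rules and a replicate block. Python 3.11.15 and pandas 2.3.3 were used. Allowing Cd3g, sums of any number of cells, no scaling factors and leaving out the pDC of most UMIs were chosen after seeing the data.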

Additional observations from a re-analysis of the deposited data

Results flagged for a closer look

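The BLM effect in pDCs minus the BLM effect in B cells passed the edgeR test for 3 of 1776 genes, each lower (0.169%), while 114 had an unadjusted p under 0.05 and DESeq2 called 0. Scgb1a1, the secretoglobin of club cells, had a difference of -4.69 ± 0.76 (SE, edgeR adjusted p = 1.04e-06). Its level was 90, 0 and 103 CPM in pDCs of BLM-treated rats and 60.3, 576 and 245 CPM in those of control rats. In B cells it was 5422, 74.4 and 60.5 CPM in BLM-treated and 75.1, 663 and 73.7 CPM in control rats, so that BLM-treated rat 1 stood apart, and without that rat the difference was 0.28. Cxcl1, a neutrophil chemokine, had a difference of -9.91, with 0, 292 and 0 CPM in pDCs of BLM-treated and 0, 61.7 and 837 CPM in those of control rats. In B cells Cxcl1 had 217, 118 and 363 CPM in BLM-treated and 28.1, 53.8 and 42.1 CPM in control rats. The pDC of most UMIs held 40 of the 46 Cxcl1 UMIs of all pDCs, and without it the difference was -6.64 (edgeR adjusted p = 0.766). Hmgcs1, an enzyme of cholesterol synthesis, had a difference of -2.49 ± 0.54 (edgeR adjusted p = 0.00252). Its level was 360.0, 1608 and 258 CPM in pDCs of BLM-treated and 1779, 823 and 551 CPM in those of control rats, which overlap, and 859.8, 1295 and 766 CPM in B cells of BLM-treated against 497, 574 and 453 CPM in those of control rats. With Cd3g allowed the difference was -1.37 (edgeR adjusted p = 0.358), without BLM-treated rat 3 it was -2.48 (adjusted p = 0.150) and without control rat 1 it was -1.96 (adjusted p = 0.353). BLM-treated rat 2 was not in these fits.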

How the results depend on the processing

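The share of pDCs kept its direction under every alternative run, at log2 fold changes of -2.66 to -1.63 without a rat (-2.45 to -1.74 with Cd3g allowed), and lost its call at -1.64 with stricter excluded genes, -1.92 of cells with Ptprc and -1.63 without BLM-treated rat 2. Genes called against all other cells numbered 2459, and 1534 with at least 3 marker UMIs, 1258 with stricter excluded genes, 1165 with both markers, 3697 with Cd3g allowed and 1786 to 2107 without a rat. The fits with at least 3 marker UMIs and with both markers held the 3 control rats only, as each BLM-treated rat had fewer than 5 such cells. That with stricter excluded genes held BLM-treated rat 1 and the 3 control rats. Against B cells they numbered 795, and 495 with stricter excluded genes, 1221 with Cd3g allowed and 666 to 747 without a rat. Against conventional dendritic cells they numbered 210, and 129 with DESeq2, 119 with stricter excluded genes and 65 to 208 without a rat (155 to 250 with Cd3g allowed). Within pDCs BLM gave 0 calls, and 4 with RLE scaling, 18 with no filter, 3 with cells of at least 500 UMIs, 1 with Cd3g allowed, 1 with sums of any number of cells, 6 with no scaling factors and 0 to 6 without a rat (0 to 8 with Cd3g allowed). The interaction gave 3 calls, and 0 with DESeq2, 1 with stricter excluded genes and 3 without any rat (0 to 6 with Cd3g allowed). The cause of these changes was not tested.

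Cxcl9 in pDCs against all other cells turned to -1.51 with DESeq2, -9.03 without BLM-treated rat 3, -8.90 with at least 3 marker UMIs, -9.15 with stricter excluded genes, -8.93 with both markers and -9.33 with Cd3g allowed and without BLM-treated rat 3. With at least 3 marker UMIs, stricter excluded genes or both markers, BLM-treated rat 3 had fewer than 5 cells. These fits therefore lacked that rat too. Sftpc against B cells turned to -0.39 without control rat 3, -0.46 with stricter excluded genes, -0.53 without the pDC of most UMIs and -0.54 with Cd3g allowed and without control rat 3. Scgb1a1 in the interaction turned to 0.28 without BLM-treated rat 1. Without a rat, Cxcl9 lay between -9.03 and 2.65, Sftpc between -0.39 and 3.84 and Scgb1a1 between -6.46 and 0.28.

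The replicate numbers are not said to mark a shared day or litter. Over all cells, the deviations of same-numbered rats from their group means correlated at 0.134, -0.0719 and -0.110. Those of rats with unlike numbers correlated at -0.119 to 0.168. With the replicate number as a block the share gave -2.17 (edgeR adjusted p = 0.0443) and BLM within pDCs 11 calls, 4 higher and 7 lower (1 with Cd3g allowed). Against conventional dendritic cells, within pDCs and in the interaction, the alternatives of at least 3 marker UMIs and of both markers could not be fitted. The limit is 82 cells, of which 19 came from BLM-treated lungs.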

Other observations

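Beside Kdr, further genes known from endothelium were looked at in pDCs after their values were seen. Esam, an adhesion molecule of endothelial junctions that dendritic cells also carry, had 450.0, 146 and 515 CPM in pDCs of BLM-treated rats and 302, 432 and 347 CPM in those of control rats, against 27.7 to 167 CPM in other cells (log2 fold change 1.95 ± 0.30, edgeR adjusted p = 2.61e-09). Nrp1, a coreceptor of vascular endothelial growth factor, had 360.0, 292 and 670 CPM in pDCs of BLM-treated rats and 302, 349.7 and 429 CPM in those of control rats, against 75.2 to 210.3 CPM in other cells (1.17 ± 0.29, edgeR adjusted p = 0.000578). Tie1, an endothelial receptor, did not pass the test (0.45 ± 0.51, edgeR adjusted p = 0.547) and was detected in 12.2% of pDCs against 59.0% of the endothelial class. Tie1 was itself among the markers that called that class. Procr, the protein C receptor, was higher by 1.49 ± 0.33 (edgeR adjusted p = 0.000105) and Lyve1, a hyaluronan receptor of lymphatic vessels, by 1.09 ± 0.40 (edgeR adjusted p = 0.0336).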
